A study of Mus musculus with 6 samples.

Results

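A set of 7 genes of the extracellular matrix and its cell surface anchors was followed in cultured mouse microglia that lack phospholipase C gamma 2. They are Fn1, Sparc, Vcan, Cspg4, Gpc1, Lox and Pdpn, taken as the rows of the deposited table that carry these symbols, 7 of 54347 gene rows. They were chosen by their measured TPM in Plcg2-/- against Plcg2+/+ libraries, since several differ strongly, so their values between genotypes are a description and carry no test. All 7 had 1 row each and a mean of at least 1 TPM (transcripts per length, scaled to a library sum of 1000000) over the 6 libraries, the limit for entering the fit across all genes. There were 3 libraries of Plcg2-/- and 3 of Plcg2+/+ microglia, from C57BL/6 pups that were littermates. All were microglia grown from forebrains of pups 2 to 3 days old in mixed glial cultures with 10% serum and GM-CSF at 5 ng/mL, which drives growth of myeloid cells. Cells were shaken off the astrocyte layer on day 12 to 13 and kept for at least 72 h with 1% serum and 0.5 ng/mL GM-CSF, so every group here was cultured in that factor. Each forebrain was plated separately into 2 flasks, but the labels do not say that each library is a separate pup. The p-values then measure only the spread between these libraries, which may in part be technical. Y-linked transcripts were high in Plcg2-/- 1 and in Plcg2+/+ 2 and 3 and low in the others, so the 3 libraries of a genotype did not share a single source.

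The extracellular matrix is the mesh of proteins and sugar chains between cells. Fibronectin is laid down as fibrils that cells grip through integrins, and SPARC is a secreted calcium-binding protein that binds collagen. Proteoglycans are core proteins that carry long sulfated sugar chains: versican is secreted and binds hyaluronan, NG2 (from Cspg4) spans the membrane, and glypican-1 is held on the surface by a lipid anchor. Lysyl oxidase crosslinks collagen and elastin, and podoplanin is a membrane mucin that binds the lectin receptor CLEC-2, whose signal in platelets runs through phospholipase C gamma 2. In brain, NG2 is best known from oligodendrocyte precursors and pericytes, and versican is also made by monocytes.

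Values are TPM, in which each library sums to 1000000, so the depth behind a value is unknown, and levels can be compared between genes since they are per length. Plcg2, the targeted gene (ENSMUSG00000034330.10, GRCm38 chromosome 8, 117498291 to 117635142), had 16.05, 16.7 and 16.1 TPM in Plcg2-/- and 45.2, 39.7 and 54.9 TPM in Plcg2+/+ libraries. Between 20102 and 21598 genes were above 0 per library, and mitochondrially encoded transcripts took 5.00 to 8.68% of TPM in Plcg2-/- and 13.6 to 17.3% in Plcg2+/+ libraries; the part of that difference in the results was not tested. Of the microglial markers, Csf1r (600.6 to 780 TPM in Plcg2-/-, 502.5 to 685 in Plcg2+/+) and Ptprc were abundant. Tmem119 stayed at or below 1.47 TPM and Cx3cr1 at or below 2.93 TPM in every library, so those defining markers of microglia in the brain were nearly absent from the cultures.

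Of the 7 genes, 5 were lower in Plcg2-/- libraries, 1 was higher and 1 overlapped, as the plot of TPM per library shows. Pdpn, Fn1, Lox, Gpc1 and Cspg4 had all 3 Plcg2-/- values below all 3 Plcg2+/+ values, Vcan had them all above, and Sparc had neither. Of all 12652 tested genes, 10.9% had their Plcg2-/- values all below and 32.4% all above. The fit called the same 5 lower and 1 higher, beside 5.31% of 12652 tested genes called lower and 15.6% called higher (limma adjusted p below 0.05); since this contrast chose the genes, nothing is read from that count. Fewer cells of a type and less RNA per cell cannot be told apart in these bulk samples.

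**Figure D1:**
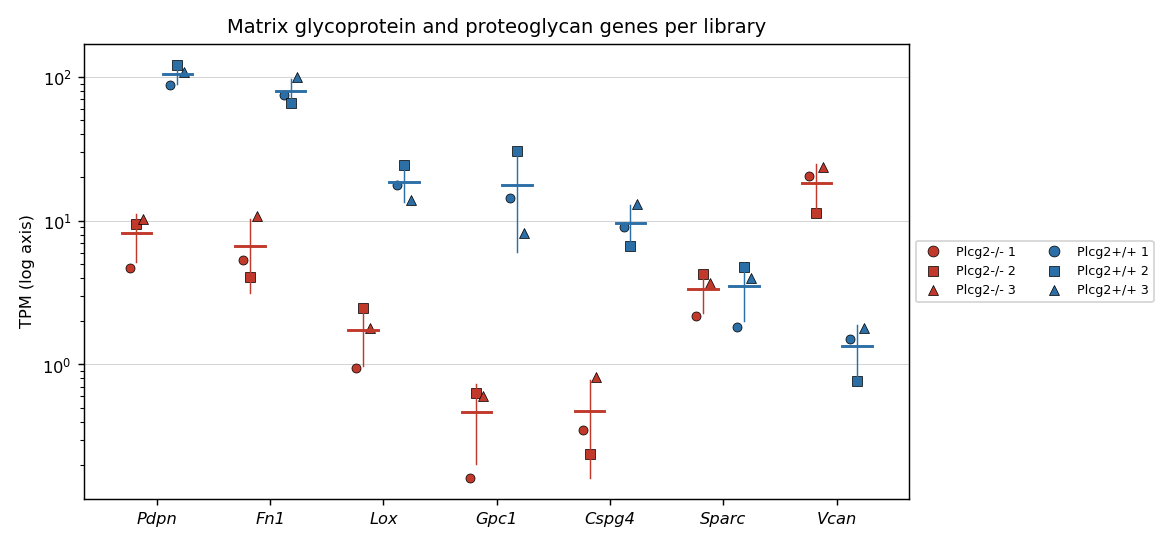
TPM of the 7 genes on a log axis, with the 3 Plcg2-/- libraries (red) left of the 3 Plcg2+/+ libraries (blue); the symbol shape gives the replicate number, horizontal bars are means and vertical bars 1 SD. Pdpn, Fn1, Lox, Gpc1 and Cspg4 are lower in Plcg2-/-, Sparc overlaps and Vcan is higher.

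Among the secreted glycoproteins, Fn1, which encodes fibronectin (ENSMUSG00000026193.15, GRCm38 chromosome 1, 71585520 to 71653200, minus strand, protein coding), had 5.30, 4.09 and 10.7 TPM in Plcg2-/- libraries 1, 2 and 3, against 75.0, 66.3 and 99.5 TPM in Plcg2+/+ libraries 1, 2 and 3. The highest Plcg2-/- value, that of replicate 3, lay 6.18-fold below the lowest Plcg2+/+ value, that of replicate 2. The means were 6.71 ± 3.54 TPM in Plcg2-/- and 80.2 ± 17.2 TPM in Plcg2+/+ (SD, n = 3 each), a difference of -3.47 ± 0.32 (SE) on the log2(TPM + 1) scale. That scale adds 1 TPM before the log and so understates differences of low genes. By level, Fn1 stood above 32.3% of tested genes in Plcg2-/- and above 88.4% in Plcg2+/+.

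Sparc (ENSMUSG00000018593.13, chromosome 11, 55394500 to 55423183, minus strand) had 2.16, 4.25 and 3.72 TPM in Plcg2-/- libraries and 1.81, 4.79 and 4.02 TPM in Plcg2+/+ libraries. Replicate 1 was the lowest and replicate 2 the highest in both genotypes, and the groups overlapped throughout. The means were 3.38 ± 1.09 TPM in Plcg2-/- and 3.54 ± 1.55 TPM in Plcg2+/+ (SD, n = 3 each), and the log2 difference was -0.02 ± 0.33 (SE). Its sign changed with single libraries, being -0.17 if Plcg2-/- 2 and -0.33 if Plcg2+/+ 1 was left out, and 0.20 if Plcg2-/- 1 and 0.19 if Plcg2+/+ 2 was, so no direction is given. Sparcl1, the related hevin gene, likewise overlapped, with 2.83, 9.80 and 4.88 TPM in Plcg2-/- and 2.81, 9.82 and 5.63 TPM in Plcg2+/+ (log2 difference -0.06, limma adjusted p = 0.943).

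Vcan, the versican gene (ENSMUSG00000021614.16, chromosome 13, 89655312 to 89742509, minus strand), was the exception in direction. It had 20.4, 11.3 and 23.5 TPM in Plcg2-/- libraries and 1.497, 0.770 and 1.79 TPM in Plcg2+/+ libraries. Its lowest Plcg2-/- value, that of replicate 2, was 6.30-fold the highest Plcg2+/+ value, that of replicate 3. Means were 18.4 ± 6.38 TPM in Plcg2-/- and 1.35 ± 0.524 TPM in Plcg2+/+ (SD, n = 3 each), 13.6-fold apart, and the log2 difference was 3.01 ± 0.30 (SE). An antisense gene, Gm4117, overlaps Vcan on the plus strand with means of 0.924 TPM in Plcg2-/- and 0.434 TPM in Plcg2+/+. Whether the counting used strand is not stated. All other genes that overlap one of the 7 in the annotation averaged at most 0.177 TPM in Plcg2-/- and 0.163 TPM in Plcg2+/+.

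Both membrane proteoglycan genes were the closest of the 7 to 0 in Plcg2-/- libraries. Cspg4 (ENSMUSG00000032911.6, chromosome 9, 56865033 to 56899870, plus strand) had 0.352, 0.239 and 0.821 TPM in Plcg2-/- and 9.03, 6.72 and 13.1 TPM in Plcg2+/+ libraries. Every Plcg2-/- library was below 1 TPM, and the lowest Plcg2+/+ value was 8.18-fold the highest Plcg2-/- value. Means were 0.471 ± 0.309 TPM in Plcg2-/- and 9.62 ± 3.24 TPM in Plcg2+/+ (SD, n = 3 each), a log2 difference of -2.83 ± 0.27 (SE).

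Gpc1 (ENSMUSG00000034220.7, chromosome 1, 92831645 to 92860779, plus strand) had 0.162, 0.633 and 0.5999 TPM in Plcg2-/- and 14.3, 30.7 and 8.17 TPM in Plcg2+/+ libraries. The Plcg2+/+ libraries differed among themselves by 3.76-fold, more than for any other of the 7 genes, with replicate 2 the highest. Means were 0.465 ± 0.263 TPM in Plcg2-/- and 17.8 ± 11.7 TPM in Plcg2+/+ (SD, n = 3 each), 38.2-fold apart, while the log2(TPM + 1) difference was -3.51 ± 0.43 (SE). The other glypican genes, Gpc2 to Gpc6, averaged below 1 TPM and were not tested.

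Lox, the lysyl oxidase gene (ENSMUSG00000024529.14, chromosome 18, 52516067 to 52529867, minus strand), had 0.948, 2.48 and 1.80 TPM in Plcg2-/- and 17.8, 24.4 and 14.0 TPM in Plcg2+/+ libraries. Replicate 2 was the highest in both genotypes. Means were 1.74 ± 0.766 TPM in Plcg2-/- and 18.7 ± 5.27 TPM in Plcg2+/+ (SD, n = 3 each), a log2 difference of -2.85 ± 0.27 (SE). Pdpn, the podoplanin gene (ENSMUSG00000028583.14, chromosome 4, 143267431 to 143299564, minus strand), had 4.73, 9.44 and 10.3 TPM in Plcg2-/- and 88.3, 120.8 and 107.7 TPM in Plcg2+/+ libraries. Replicate 1 was the lowest in both genotypes, and the lowest Plcg2+/+ value was 8.56-fold the highest Plcg2-/- value. Means were 8.16 ± 3.01 TPM in Plcg2-/- and 105.6 ± 16.3 TPM in Plcg2+/+ (SD, n = 3 each), a log2 difference of -3.59 ± 0.27 (SE).

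As a group the 7 genes summed to 39.3 ± 10.6 TPM in Plcg2-/- and 236.8 ± 25.4 TPM in Plcg2+/+ (SD, n = 3 each), and their order turned over. Vcan was the highest of the 7 in every Plcg2-/- library, at 34.8 to 59.96% of the sum, and the lowest in every Plcg2+/+ library, at 0.303 to 0.721%. Pdpn and Fn1 led in every Plcg2+/+ library, where Pdpn held 42.5 to 47.5% and Fn1 26.05 to 40.1% of the sum. In Plcg2-/- the ranges of Pdpn, Fn1, Sparc and Lox overlapped from one to the next, and so did those of Cspg4 and Gpc1. In Plcg2+/+ Pdpn overlapped Fn1, and Lox, Gpc1 and Cspg4 overlapped in turn, while Sparc and Vcan each lay below the rest.

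**Figure D2:**
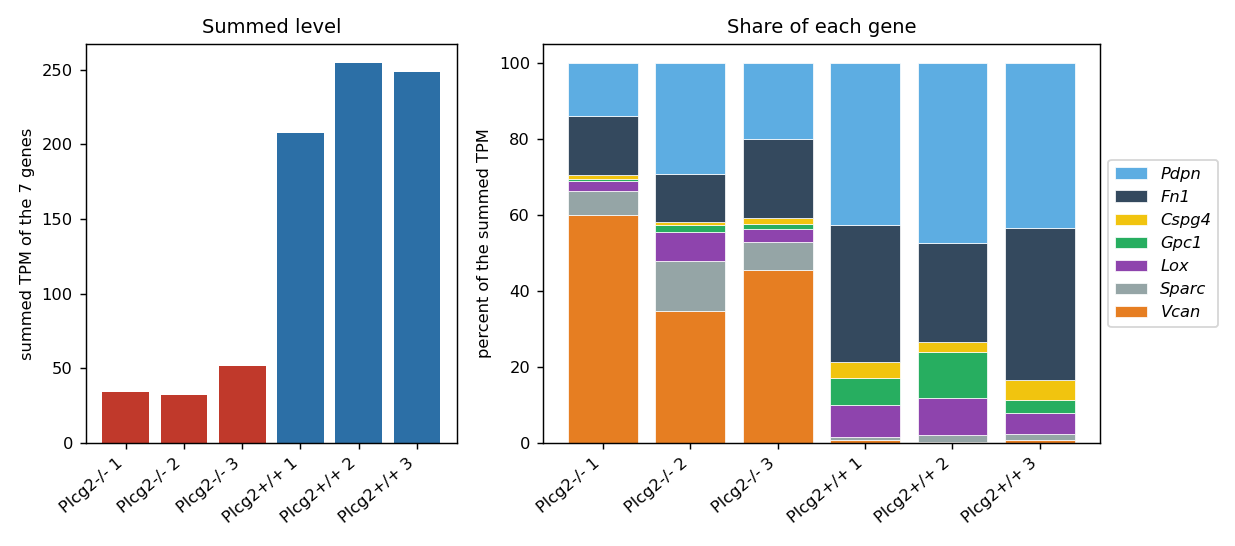
Summed TPM of the 7 genes per library (left, bars from 0) and the percent of that sum held by each gene (right), Plcg2-/- libraries before Plcg2+/+ libraries. Vcan holds 34.8 to 59.96% of the sum in Plcg2-/- and 0.303 to 0.721% in Plcg2+/+.

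For most of the 7, the gene's highest and lowest libraries had the same replicate number in both genotypes. The choice of genes did not use that order. The same number was the highest in both genotypes for 6 of 7 genes, against 41.0% of all tested genes, and the lowest in both for 5 of 7, against 46.5%. Some orders rest on values near 0, such as 0.633 against 0.5999 TPM for Gpc1 in Plcg2-/- libraries 2 and 3. Several of the genes also shared an order, so the 7 are not separate observations and the counts only describe. Fn1, Vcan and Cspg4 were highest in replicate 3 and lowest in replicate 2 in each genotype. Gpc1, Lox and Sparc were highest in replicate 2 in each genotype. Vcan therefore followed Fn1 and Cspg4 in the order of libraries within each genotype, although it differed from them in direction between genotypes. Taken by replicate number, the Plcg2-/- minus Plcg2+/+ differences ran from -3.73 to -3.10 for Fn1, from 2.79 to 3.14 for Vcan, from -4.28 to -2.52 for Gpc1 and from -3.96 to -3.26 for Pdpn on the log2(TPM + 1) scale.

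Likeness of profiles was measured as the root mean square distance between log2(TPM + 1) values over the 6 libraries, each gene centred on its mean. It holds the difference between genotypes, and so only describes. Between members, Fn1 and Cspg4 were the closest pair at 0.39, and Vcan and Gpc1 the most distant at 3.36. Among 8446 named genes (8447 for Sparc) off the X and Y chromosomes with a mean of at least 5 TPM, predicted genes (Gm and Rik symbols) left out, Vcan was closest to Gbp7, a guanylate-binding protein gene, at 0.13, and to Ifi203 at 0.26. Gbp7 had 83.3, 37.4 and 74.9 TPM in Plcg2-/- and 8.07, 5.04 and 9.62 TPM in Plcg2+/+ libraries, so replicate 2 was its lowest in each genotype, as for Vcan. Lox was closest to Prss46 at 0.08 and Uchl1 at 0.13, and Gpc1 to Matk at 0.15 and Lrrc32 at 0.16. The chemokine gene Cxcl14 was the closest to both Fn1, at 0.37, and Pdpn, at 0.24, and Spp1 was second for Pdpn at 0.32. Cspg4 was closest to Rgcc at 0.23 and Inhba at 0.24. Sparc was closest to Mbp at 0.10 and Hirip3 at 0.12.

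RefSeq promoter sequences (build GRCm38.p6) were at hand for Vcan, Cspg4, Pdpn and Sparc. The 250 bases before the RefSeq start are shown for the gene that was higher and for 2 that were lower, to set genes of opposite direction side by side. They are written 5′ to 3′ on the gene's strand, and capitals mark a searched motif on either strand. Vcan lies on the minus strand at chr13:89742513-89742762, Cspg4 on the plus strand at chr9:56864854-56865103 and Pdpn on the minus strand at chr4:143299565-143299814. RefSeq and GENCODE starts differ, so that 71 bases of the Cspg4 window and all 250 of the Sparc window lie inside the gene as bounded by GENCODE.
Vcan: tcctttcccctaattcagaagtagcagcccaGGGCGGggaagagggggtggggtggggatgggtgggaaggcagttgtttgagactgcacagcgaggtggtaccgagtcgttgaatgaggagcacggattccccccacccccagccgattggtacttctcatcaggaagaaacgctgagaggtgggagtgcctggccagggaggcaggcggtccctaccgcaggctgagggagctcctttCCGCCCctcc
Cspg4: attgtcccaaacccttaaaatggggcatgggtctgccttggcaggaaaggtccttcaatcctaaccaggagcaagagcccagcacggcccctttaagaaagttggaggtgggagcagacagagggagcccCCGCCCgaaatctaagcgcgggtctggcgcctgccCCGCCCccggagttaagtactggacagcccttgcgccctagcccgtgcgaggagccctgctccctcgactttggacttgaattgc
Pdpn: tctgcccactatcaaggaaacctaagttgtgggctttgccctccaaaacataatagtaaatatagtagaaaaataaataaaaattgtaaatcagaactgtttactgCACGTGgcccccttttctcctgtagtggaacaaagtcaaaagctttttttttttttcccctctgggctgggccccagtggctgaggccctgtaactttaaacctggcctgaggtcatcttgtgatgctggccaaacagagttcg
Both strands were searched for 6 motifs, and no matches overlapped. The AP-1 motif was spelled TGANTCA. For a TATA box the letters were TATAAA. A GC box was GGGCGG. The core bound by PU.1 was taken as GAGGAA. An E-box was CACGTG. Sites of TEAD factors were taken as GGAATG. Vcan held 2 GC boxes and Cspg4 2, a motif found in 32.7% of 32851 promoter windows of this length. Pdpn held 1 E-box, found in 6.02%, and the Sparc window held none of the 6 motifs. The AP-1 letters, found in 6.75% of windows, were in none of these 4 windows. Vcan and Cspg4 thus shared a motif while differing in direction, and a match is a description of letters only.

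Genes that surround the 7 were described from 6 lists of 281 genes, of which 130 passed the limit of 1 TPM. Of these, 14 rose and 35 fell in Plcg2-/- libraries at a limma adjusted p below 0.05, beside 1971 higher (15.6%) and 672 lower (5.31%) of all 12652 genes, 20.9% in either direction. Median-of-ratios scaling moved the median log2 difference of all genes from 0.19 to -0.0045. With it 975 of all genes were higher and 993 lower, so 49.5% of calls were higher in place of 74.6%. For the 6 lists it gave 11 higher and 43 lower. Single libraries moved these counts over all genes too: 782 were higher and 327 lower if Plcg2+/+ 1 was left out, 940 and 409 for Plcg2+/+ 2, 559 and 276 for Plcg2-/- 1 and 786 and 397 for Plcg2-/- 3. In the 6 lists, 9 were then higher and 18 lower for Plcg2+/+ 1, 10 and 21 for Plcg2+/+ 2, 7 and 15 for Plcg2-/- 1 and 7 and 17 for Plcg2-/- 3. The 130 tested genes of the lists had a median log2 difference of -0.11, against 0.19 for all tested genes. The lists were chosen with earlier results of these data known, so no trend of matrix genes is read from their counts or median. The plot of log2 differences by list shows each tested gene.

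**Figure D3:**
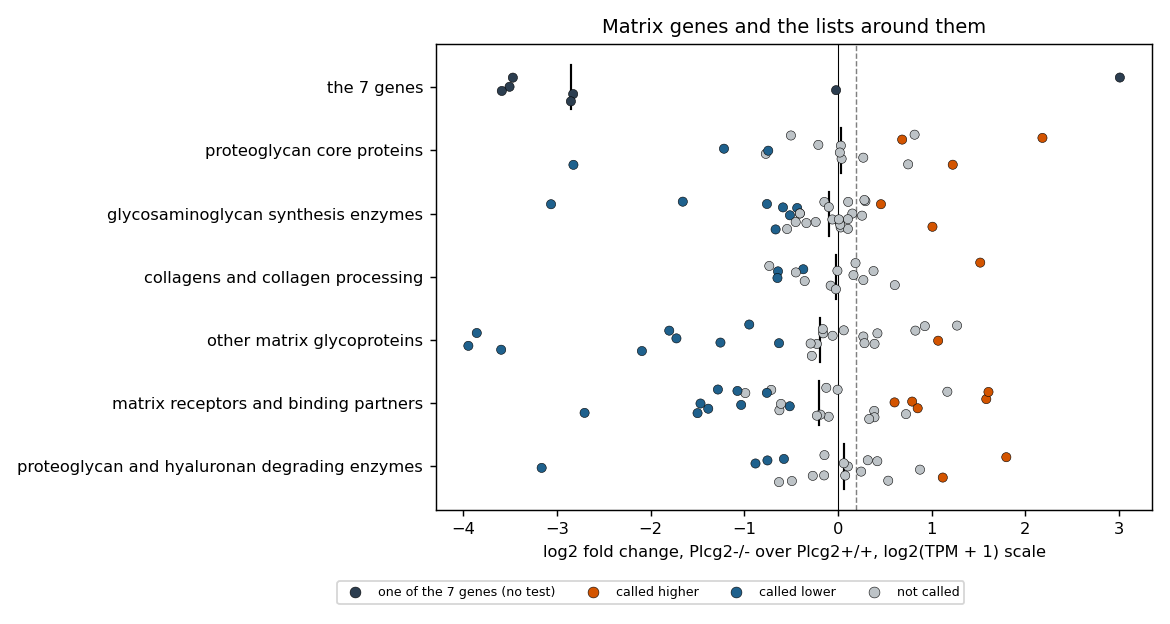
Difference in log2(TPM + 1), Plcg2-/- minus Plcg2+/+, of the 7 genes (dark, no test) and of the tested genes of each list (orange called higher, blue called lower, gray not called); vertical ticks are medians and the dashed line is the median of all tested genes, 0.19. The points of other matrix glycoproteins reach -3.95, past those of the 7 genes.

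Other core proteins of proteoglycans moved both ways, and the syndecans, transmembrane heparan sulfate proteoglycans, parted. Sdc1 had 2.40, 9.498 and 4.62 TPM in Plcg2-/- and 35.4, 58.4 and 32.1 TPM in Plcg2+/+ libraries and had a log2 value that fell by 2.83 ± 0.42 (SE), with a limma adjusted p of 0.00636. Sdc3 had 343.9, 304.5 and 308.8 TPM in Plcg2-/- and 143.8, 125.7 and 138.1 TPM in Plcg2+/+ libraries and rose by 1.23 ± 0.11 (SE) (limma adjusted p = 0.00124). For both genes the groups did not overlap. Sdc4 had 17.8, 24.2 and 14.1 TPM in Plcg2-/- and 7.59, 12.8 and 9.97 TPM in Plcg2+/+ libraries and did not pass (log2 difference 0.82, limma adjusted p = 0.0544), but did with the replicate block (limma adjusted p = 0.0219). Agrn, the agrin gene, rose by 0.69 and Cd74, the invariant chain gene, whose product can carry a chondroitin sulfate chain, by 2.18 (limma adjusted p = 0.00692 and 0.00178); Cd74 was the most abundant of the list. Csf1 fell by 1.22 and Nrp1 by 0.74 (limma adjusted p = 0.0244 and 0.0428). Csf1 did not pass without Plcg2+/+ 1, 2 or 3 or Plcg2-/- 3 (limma adjusted p = 0.0901, 0.0618, 0.0552 and 0.0873). Nrp1 did not pass without Plcg2+/+ 1 or 2 or without Plcg2-/- 1, 2 or 3 (limma adjusted p = 0.13, 0.114, 0.148, 0.1 and 0.0898), nor with the replicate block (limma adjusted p = 0.0546). Srgn, the serglycin gene, averaged 62.7 ± 5.76 TPM in Plcg2-/- and 61.9 ± 6.48 TPM in Plcg2+/+ (SD, n = 3 each; limma adjusted p = 0.923). Of 15 tested genes of 43, 3 rose and 3 fell, with a median log2 difference of 0.03. With the replicate block 5 rose and 3 fell, and leaving out Plcg2+/+ 1 or 2 or Plcg2-/- 3 gave 1 that fell.

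Genes of enzymes that build the sugar chains fell more often than they rose, and the largest change was that of Chst11. Chst11, a chondroitin 4-O-sulfotransferase gene, had 0.474, 1.21 and 0.763 TPM in Plcg2-/- and 16.8, 15.3 and 10.6 TPM in Plcg2+/+ libraries. Its log2 value fell by 3.06 ± 0.23 (SE), with a limma adjusted p of 0.000922. Xylt1, a xylosyltransferase gene whose enzyme starts chains on the core protein, had 6.35, 5.23 and 7.94 TPM in Plcg2-/- and 24.4, 23.8 and 19.4 TPM in Plcg2+/+ libraries. It fell by 1.66 ± 0.17 (SE) (limma adjusted p = 0.00166). Both genes kept their calls without any single library, and their groups did not overlap. Vcan, whose product carries chondroitin sulfate, was thus higher in the libraries in which these genes were lower.

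Smaller decreases were those of Extl3, which acts in heparan sulfate synthesis, by 0.67 and of Chpf, a chondroitin polymerizing factor gene, by 0.59 (limma adjusted p = 0.0192 and 0.0195). Extl3 did not pass without Plcg2+/+ 1 or 2 or without Plcg2-/- 1 or 3 (limma adjusted p = 0.072, 0.0575, 0.0868 and 0.0644). Chpf did not without Plcg2+/+ 2 or without Plcg2-/- 1 or 3 (limma adjusted p = 0.0667, 0.0724 and 0.0718). Dse, a dermatan sulfate epimerase gene, rose by 0.46 (limma adjusted p = 0.0327). That call was lost after median-of-ratios scaling (limma adjusted p = 0.168) and without any single library but Plcg2-/- 2 (limma adjusted p = 0.0597 to 0.118). Ndst2, the most abundant, did not pass (log2 difference 0.26, limma adjusted p = 0.258). Nor did Chst12 and Chst14, the other Chst genes tested (limma adjusted p = 0.0517 and 0.968), which were named after their values were seen. Of 29 tested genes of 48, 2 rose and 7 fell, with a median log2 difference of -0.10. Leaving out Plcg2+/+ 1 gave 0 higher and 3 lower, Plcg2+/+ 2 gave 0 and 3, Plcg2+/+ 3 gave 1 and 7, Plcg2-/- 1 gave 0 and 2, and Plcg2-/- 3 gave 0 and 2. Where the limma count of higher genes was 0 there, it was 2 to 3 at an unadjusted p below 0.05.

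Enzymes that degrade proteoglycans also changed. Adamts1, a secreted metalloprotease gene whose product cleaves versican, had 2.20, 2.87 and 2.60 TPM in Plcg2-/- and 44.8, 34.5 and 18.8 TPM in Plcg2+/+ libraries. Its log2 value fell by 3.16 ± 0.30 (SE), with a limma adjusted p of 0.00141. Hpse, the heparanase gene, had 105.8, 120.6 and 94.7 TPM in Plcg2-/- and 34.8, 34.9 and 22.0 TPM in Plcg2+/+ libraries and rose by 1.80 ± 0.20 (SE) (limma adjusted p = 0.00221). Both calls held without any single library, and in both the groups stood apart. The lysosomal enzyme gene Ids rose by 1.12, while Gusb, Arsb and Galns fell by 0.75, 0.88 and 0.58 (limma adjusted p = 0.0088, 0.0107, 0.0127 and 0.0151). Ids, Gusb and Arsb did not pass without Plcg2-/- 1 (limma adjusted p = 0.0524, 0.0556 and 0.0658). Gusb, Arsb and Galns did not pass without Plcg2+/+ 1 (limma adjusted p = 0.0508, 0.0571 and 0.0591). Hexa, the most abundant, did not pass (log2 difference 0.32, limma adjusted p = 0.114). Of 19 tested genes of 33, 2 rose and 4 fell, with a median log2 difference of 0.06, and leaving out Plcg2+/+ 1 gave 2 and 1, Plcg2-/- 1 gave 1 and 2.

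**Figure D4:**
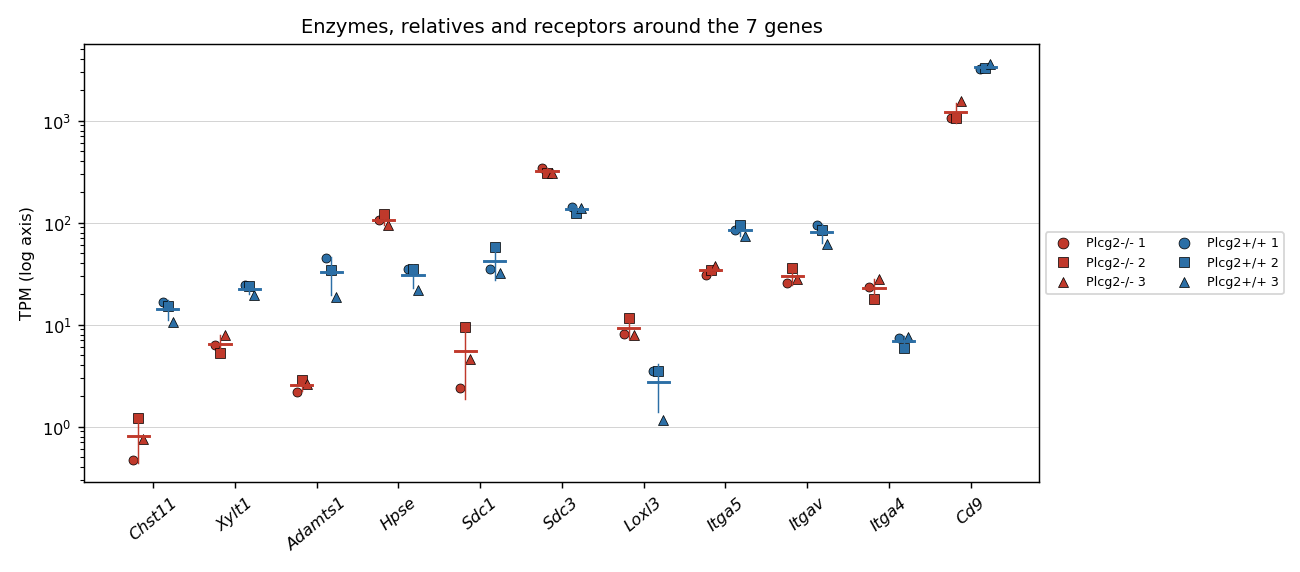
TPM on a log axis of genes of chain synthesis (Chst11, Xylt1), degradation (Adamts1, Hpse), other core proteins (Sdc1, Sdc3), a lysyl oxidase relative (Loxl3) and receptors (Itga5, Itgav, Itga4, Cd9), Plcg2-/- (red) left of Plcg2+/+ (blue); shapes give replicate numbers, horizontal bars means and vertical bars 1 SD. The groups stand apart in all 11 genes, higher in Plcg2-/- for Hpse, Sdc3, Loxl3 and Itga4 and lower for the rest. These genes were picked because this contrast called them, so that was nearly fixed beforehand. Of all 12652 tested genes, 43.3% had groups that did not overlap.

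Receptors of fibronectin and partners of podoplanin changed in both directions. Itga5, the alpha subunit of the main fibronectin receptor, had 30.9, 34.4 and 37.5 TPM in Plcg2-/- and 85.3, 95.2 and 74.4 TPM in Plcg2+/+ libraries and had a log2 value that fell by 1.28 ± 0.13 (SE), with a limma adjusted p of 0.00172. Its beta partner Itgb1 averaged 272 ± 27.9 TPM in Plcg2-/- and 296 ± 7.21 TPM in Plcg2+/+ (SD, n = 3 each) and did not pass (limma adjusted p = 0.464). Itgav, an alpha subunit of receptors for fibronectin, vitronectin and osteopontin, had 25.7, 36.2 and 27.9 TPM in Plcg2-/- and 95.05, 83.8 and 61.8 TPM in Plcg2+/+ libraries and fell by 1.39 ± 0.20 (SE) (limma adjusted p = 0.00556). Itga4, an alpha subunit that binds fibronectin at another site, went the other way. It had 23.7, 17.7 and 28.0 TPM in Plcg2-/- and 7.32, 5.96 and 7.58 TPM in Plcg2+/+ libraries and rose by 1.58 ± 0.19 (SE) (limma adjusted p = 0.00277).

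Cd9, a tetraspanin gene whose product binds podoplanin, fell by 1.47 ± 0.18 (SE) on the log2 scale, with 1066, 1074 and 1546 TPM in Plcg2-/- and 3181, 3277 and 3603 TPM in Plcg2+/+ libraries (limma adjusted p = 0.00342). Cd36, a scavenger receptor gene that also binds thrombospondin, fell by 2.71, and Cd47, another thrombospondin receptor gene, rose by 0.85 (limma adjusted p = 0.00166 and 0.00696). The calls of Itga5, Itgav, Itga4, Cd9, Cd36 and Cd47 held without any single library. Stab1, a scavenger receptor gene, rose by 1.61, but not without Plcg2+/+ 1 or Plcg2-/- 3 (limma adjusted p = 0.0145, 0.0625 and 0.053). Lgals8, a galectin gene whose product binds podoplanin, rose by 0.79, but not without Plcg2-/- 1 or 3 (limma adjusted p = 0.0153, 0.071 and 0.0609). Lgals3, the most abundant, did not pass (log2 difference -0.23, limma adjusted p = 0.374).

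Clec1b, the CLEC-2 gene, was singled out after its values were seen, as the receptor of podoplanin. It had 3.76, 3.43 and 2.59 TPM in Plcg2-/- and 7.45, 5.21 and 5.99 TPM in Plcg2+/+ libraries, with no overlap, and fell by 0.76 on the log2 scale (limma adjusted p = 0.0295). Without any one of the 6 libraries it did not pass (limma adjusted p = 0.0508 to 0.0959). Itgb5 and Cd44 did not pass (limma adjusted p = 0.0594 and 0.151) but did with the replicate block (limma adjusted p = 0.00838 and 0.0321), and Itgb5 also without Plcg2-/- 2 (limma adjusted p = 0.0412); they too were named after their values were seen. Of 28 tested receptor and partner genes of 46, 5 rose and 9 fell, with a median log2 difference of -0.21. Leaving out Plcg2+/+ 1 gave 3 higher and 6 lower, Plcg2+/+ 2 gave 4 and 5, Plcg2-/- 1 gave 3 and 5, and Plcg2-/- 3 gave 2 and 4.

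Lox had 1 tested relative, which moved the other way. Loxl3, a lysyl oxidase-like gene, had 8.08, 11.7 and 8.004 TPM in Plcg2-/- and 3.52, 3.50 and 1.17 TPM in Plcg2+/+ libraries and rose by 1.52 ± 0.32 log2 units (SE; limma adjusted p = 0.0194). The groups did not overlap, but Loxl3 did not pass without Plcg2-/- 1, 2 or 3 (limma adjusted p = 0.0736, 0.056 and 0.0598). Loxl1, Loxl2 and Loxl4 averaged below 1 TPM. Transcripts of type I collagen, a main substrate of lysyl oxidase, were low: Col1a1 stayed at or below 1.34 TPM and Col1a2 at or below 0.393 TPM in every library. Among genes of collagen processing, P3h1, a prolyl 3-hydroxylase gene, fell by 0.64 and its partner Crtap by 0.65 (limma adjusted p = 0.0129 and 0.0467). P4hb, a disulfide isomerase gene that also serves prolyl 4-hydroxylase and the most abundant of the list, fell by 0.37 (limma adjusted p = 0.0486). P3h1 did not pass without Plcg2-/- 1 (limma adjusted p = 0.0547). Crtap did not without any single library but Plcg2-/- 2 (limma adjusted p = 0.054 to 0.16), and P4hb without any but Plcg2+/+ 3 (limma adjusted p = 0.0939 to 0.137) or with the replicate block (limma adjusted p = 0.0695). Of 15 tested genes of 45, 1 rose and 3 fell, with a median log2 difference of -0.02. Leaving out Plcg2+/+ 1 gave 1 higher and 1 lower, Plcg2+/+ 2 gave 1 and 1, Plcg2-/- 2 gave 0 and 2, Plcg2-/- 3 gave 0 and 1, and Plcg2-/- 1 gave 0 and 0, where limma gave 2 higher and 4 lower at an unadjusted p below 0.05. For Plcg2-/- 2 and 3 the count of higher genes at that unadjusted p was also 2.

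Other secreted glycoproteins included large decreases, led by Mamdc2, Mfge8 and Spp1. Mfge8, whose product bridges apoptotic cells to integrins, had 314.3, 642.3 and 497.6 TPM in Plcg2-/- and 6892, 10250 and 4360 TPM in Plcg2+/+ libraries and had a log2 value that fell by 3.86 ± 0.37 (SE), with a limma adjusted p of 0.00143. Mamdc2, the gene of a secreted MAM domain protein, had 12.6, 13.3 and 21.9 TPM in Plcg2-/- and 266.0, 459.3 and 132.3 TPM in Plcg2+/+ libraries and fell by 3.95 ± 0.44 (SE) (limma adjusted p = 0.00221). Replicate 3 was the lowest of the Plcg2+/+ libraries for both, as for Gpc1. Spp1, the osteopontin gene and the most abundant of the list, fell by 3.60 ± 0.37 (SE) (limma adjusted p = 0.0017). Ecm1 fell by 0.95 (limma adjusted p = 0.00946), but not without Plcg2-/- 1 (limma adjusted p = 0.0523). Of 24 tested genes of 66, 1 rose and 9 fell, with a median log2 difference of -0.19. The 1 that rose was the basement membrane gene Nid2, while its relative Nid1 fell by 1.73; both were named after their values were seen. Nid2 had 2.10, 1.67 and 2.22 TPM in Plcg2-/- and 0.199, 0.178 and 1.05 TPM in Plcg2+/+ libraries (limma adjusted p = 0.0391, 0.0613 after median-of-ratios scaling, and 0.0583 to 0.113 without Plcg2+/+ 1 or 2 or without Plcg2-/- 1, 2 or 3). Leaving out Plcg2+/+ 1 gave 0 higher and 6 lower, Plcg2+/+ 2 gave 0 and 7, Plcg2+/+ 3 gave 2 and 7, Plcg2-/- 1 gave 0 and 4, Plcg2-/- 2 gave 2 and 8, and Plcg2-/- 3 gave 0 and 5, while the replicate block gave 3 and 9. Where the limma count of higher genes was 0 there, it was 1 to 2 at an unadjusted p below 0.05.

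Markers of other cells that make these proteins were set beside them. Of 9 fibroblast and mural markers, 6 were below 1 TPM in every library, and the list summed to 1.87 to 5.38 TPM in Plcg2-/- and 2.02 to 3.85 TPM in Plcg2+/+ libraries. The exact permutation test, two-sided for each marker list, gave p = 0.5, where 0.1 is the smallest that 3 against 3 can give. Permuted within pairs of the same replicate number, where 0.25 is the smallest p that 3 pairs can give, the exact p was 0.25 for microglial markers and 0.5 for each of the other 6 lists. In Plcg2+/+ libraries Fn1 alone had 66.3 to 99.5 TPM, and Pdgfrb at most 0.126 TPM. Markers of the oligodendrocyte lineage summed to 84.4 to 118 TPM in Plcg2-/- and 54.8 to 123.5 TPM in Plcg2+/+ (exact permutation p = 0.7), most of it Mbp and Cnp. The precursor marker Pdgfra had 0.363 to 0.895 TPM in Plcg2-/- and 0.752 to 1.84 TPM in Plcg2+/+ libraries (limma adjusted p = 0.299), and Sox10 stayed at or below 0.917 TPM. Astrocyte markers summed to 43.1 to 59.7 TPM in Plcg2-/- and 30.4 to 60.5 TPM in Plcg2+/+ (exact permutation p = 0.4), with Gfap at or below 5.15 TPM and Sox9 at or below 0.0641 TPM. Endothelial markers summed to 19.7 to 29.1 TPM in Plcg2-/- and 16.4 to 24.0 TPM in Plcg2+/+ (exact permutation p = 0.3), and neuronal ones to 6.33 to 12.5 TPM in Plcg2-/- and 2.97 to 10.03 TPM in Plcg2+/+ (exact permutation p = 0.5). Single markers were called even so: Aldh1l1, Cnp, Kdr and Syn1 rose and Flt1 fell (limma adjusted p = 0.0282, 0.0028, 0.00477, 0.0361 and 0.00595). The calls of Cnp, Kdr and Flt1 held without any single library. Aldh1l1 did not pass without Plcg2+/+ 1 or 2 or Plcg2-/- 1 or 3 (limma adjusted p = 0.0929 to 0.106), nor Syn1 without any library but Plcg2+/+ 2 (limma adjusted p = 0.0581 to 0.116) or after median-of-ratios scaling (limma adjusted p = 0.0759). Their part in the values of the 7 genes was not tested.

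Sparc shared its order of libraries with the glial markers Mbp and Gfap, each highest in replicate 2 and lowest in replicate 1 in both genotypes. The summed oligodendrocyte lineage markers had that order too, but the summed astrocyte markers did not. In libraries 1, 2 and 3 the astrocyte sum was 57.7, 43.1 and 59.7 TPM in Plcg2-/- and 30.4, 37.4 and 60.5 TPM in Plcg2+/+. The part of these markers in the values of Sparc was not tested. Monocyte markers summed to 105.7 to 297.5 TPM in Plcg2-/- and 38.9 to 310.3 TPM in Plcg2+/+ (exact permutation p = 0.7), with no marker of the 7 at 0 in every library. Ly6c2, Ccr2, Chil3 and S100a8 did not pass the fit across all genes (limma adjusted p = 0.341, 0.312, 0.515 and 0.849). The part of monocyte-type cells in the level of Vcan was not tested. Of the 10 microglial markers, summed at 3382 to 5986 TPM in Plcg2-/- and 2541 to 4377 TPM in Plcg2+/+ (exact permutation p = 0.5) and higher in Plcg2-/- in 3 of 3 pairs, P2ry12 and Aif1 rose, and Itgam and Cx3cr1 fell (limma adjusted p = 0.0166, 0.0333, 0.000946 and 0.0203). Itgam kept its call without any single library. P2ry12 and Cx3cr1 did not pass without Plcg2+/+ 1 or Plcg2-/- 1 or 3 (limma adjusted p = 0.0525 to 0.0786), nor Aif1 without any library but Plcg2-/- 3 (limma adjusted p = 0.0615 to 0.133) or after median-of-ratios scaling (limma adjusted p = 0.0616).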

How the data were processed

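Gene expression was measured by polyA-selected, 150-bp paired-end RNA sequencing per the labels' protocols, in 3 Plcg2-/- and 3 Plcg2+/+ microglia samples. Per gene, the authors deposited TPM in 1 table; Salmon 1.3.0, DESeq2 1.30.1, R 4.0.4 and GRCm38.p6 are named per the submitters' processing notes, while no source used here gives the annotation release or strand setting. TPM keeps no depth, which leaves no basis for a count model. Positions are from GENCODE M21 (GRCm38), where 54094 of the 54347 row identifiers were found.

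The 12652 genes with a mean of at least 1 TPM were compared on log2(TPM + 1) with limma 3.58.1 under R 4.3.3 (two-sided, prior variance following the mean, 4 residual degrees of freedom), with Benjamini-Hochberg adjustment across them and a threshold of 0.05. Standard errors are the moderated ones. Marker sums were compared by exact permutation tests (scipy 1.17.1), unpaired and, as an alternative added after seeing the data, within pairs. The fit was tested on simulated data. The members, lists and named-gene rule were chosen with earlier results of these data known. The rule took the members, up to 4 called genes per list and direction with a mean of at least 5 TPM and the smallest p, the most abundant of each list, tested relatives of the members and the 2 genes most like each member. Replicate numbers come from the titles, and libraries of the same number differed in the level of Y-linked transcripts. Deviations from genotype means correlated at 0.295, 0.193 and 0.147 between libraries of the same number, all above the limit of 0.1, and so are treated as pairing them; the fit reported has no block, and blocked values stand where they change a call. The alternatives changed the pseudocount (0.1, 0.5), dropped the filter, or used a mean of at least 5 TPM, median-of-ratios scaling, the replicate block with and without that scaling, the Y-linked level as a covariate and each library left out. Results of 2 marker genes are not reported here, though both count in the sums of their lists.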

Additional observations from a re-analysis of the deposited data

How the results depend on the processing

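The 6 members that differed kept their direction in 15 of 15 fits, with log2 differences of -3.82 to -3.22 for Fn1, 2.81 to 3.68 for Vcan, -4.91 to -3.03 for Gpc1, -4.17 to -2.60 for Cspg4, -3.41 to -2.63 for Lox and -3.79 to -3.28 for Pdpn. This contrast chose these genes and their groups did not overlap, so the kept direction was nearly fixed beforehand and adds no support. For Vcan, Gpc1, Cspg4 and Lox the largest move came with a pseudocount of 0.1, and for Fn1 and Pdpn with a library left out. TPM keeps no depth, which limits what can be said of values near 0. The Y-linked level was high in Plcg2-/- 1 and Plcg2+/+ 2 and 3. With the Y-linked covariate, Csf1, Nrp1, Extl3, Chpf, Dse, Galns, Lgals8 and Clec1b did not pass (limma adjusted p = 0.0517 to 0.0866). Nor did Loxl3, Crtap, P4hb or Nid2 (limma adjusted p = 0.0573 to 0.13). The markers Cx3cr1, P2ry12, Aif1, Aldh1l1 and Syn1 also lost their calls with it (limma adjusted p = 0.0506 to 0.0872). The causes of these changes and of those below were not tested.

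Over all genes, counts higher and lower were 842 and 375 with the Y-linked covariate and 975 and 993 with median-of-ratios scaling. They were 1104 and 1127 with that scaling and the replicate block, 2483 and 815 with the replicate block alone, and 1226 and 500 with no filter. Single libraries left out gave 559 to 2106 higher and 276 to 644 lower. Over the 6 lists together, counts were added after the data were seen. With the covariate 9 were higher and 20 lower, and with no filter 9 and 23. The replicate block gave 19 and 38, median-of-ratios scaling 11 and 43, and both together 15 and 45. Each library left out in turn gave 7 to 15 higher and 15 to 32 lower.

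For core proteins, 5 were higher with the replicate block, with or without scaling, and 1 was lower with the Y-linked covariate or no filter; leaving out libraries gave 1 to 2 lower. For chain synthesis, 1 was higher with the covariate, a mean of at least 5 TPM, scaling, or scaling with the block, and 0 with no filter (3 at an unadjusted limma p below 0.05); 2 were lower with the covariate. Left-out libraries gave 0 to 2 higher and 2 to 7 lower. For collagens, 0 were higher and 1 lower with the covariate or no filter (2 higher in each at that unadjusted p), and left-out libraries gave 0 to 1 higher and 0 to 2 lower. For other glycoproteins, 0 were higher with the covariate, a mean of at least 5 TPM, scaling, no filter or a pseudocount of 0.1 (2, 1, 2, 4 and 3 at that unadjusted p), 2 with scaling and the block and 3 with the block. Left-out libraries gave 0 to 2 higher and 4 to 8 lower. For receptors and partners, 3 were higher with the covariate, and left-out libraries gave 2 to 6 higher and 4 to 9 lower. For degrading enzymes, 7 were lower with scaling and the block, and left-out libraries gave 1 to 3 higher and 1 to 5 lower.

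The log2 ratio of summed oligodendrocyte lineage markers, Plcg2-/- over Plcg2+/+, was 0.20 as deposited, -0.0242 after scaling and -0.0618 to 0.49 with a library left out (lowest without Plcg2+/+ 1). That of monocyte markers was 0.29, and -0.24 to 1.38 with a library left out, being negative without Plcg2-/- 3 and, at -0.17, without Plcg2+/+ 2.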
